A study of Mus musculus with 6 samples.

Results

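The subject here is a set of 10 integrin subunit genes whose products can take part in receptors for CCN1, out of 47643 genes listed for each library. They are 5 alpha subunits (Itgav, Itga6, Itga5, Itga2 and Itgam) and 5 beta subunits (Itgb1, Itgb2, Itgb3, Itgb5 and Itgb8), chosen by name and found by gene symbol. RNA came from GFP-positive ependymal cells sorted from the adult mouse ventricular-subventricular zone (V-SVZ), the wall of the lateral ventricle that holds the neural stem cell niche. All mice, controls included, had been given tamoxifen 2 days before the sort, which switched on GFP in ependymal cells. In the Ccn1cKO mice the same recombination deleted Ccn1, and the Ctrl mice (control here) were the comparison group. Cells were gated on GFP relative to wild-type cells, and 3 samples of each genotype were sequenced. No source used here names the promoter that drives the recombinase or an age beyond adult. Nothing in the labels says whether the samples of a genotype came from separate animals, so the p-values measure the spread between these samples only. The labels describe the material as cytoplasmic RNA in one field and total RNA in another.

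An integrin is a receptor made of 1 alpha and 1 beta chain, and a chain without a partner is not carried to the cell surface. The pairing is restricted: the Itgav product can join several beta chains, the Itgb1 product joins many alpha chains, and the Itgam product joins the Itgb2 product on myeloid cells. CCN1 is a secreted matricellular protein that works largely through integrins, and which pair it meets depends on the cell. It is known to bind the pairs of Itgav with Itgb3 on endothelial cells, of Itga6 with Itgb1 on fibroblasts, and of Itgam with Itgb2 on monocytes. The pair of Itgav with Itgb5 is a known receptor of CCN1 too. Since CCN1 is secreted, the receptor need not be on the cell that makes it, and these libraries speak only of the sorted cells. They measure RNA, so which chains pair as proteins was not measured.

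The libraries held 13401499 to 15689579 estimated counts, and a count of 3 corresponds to 0.191 to 0.224 CPM (counts scaled to library size). All 7 ependymal markers stood above 3 counts in all 6 libraries. Their summed level was 20219 to 20958 TPM (transcript abundance scaled for length and library size) in the cKO and 20124 to 23314 TPM in the control. Markers listed for other cells were present too. The choroid plexus list summed to 301 to 906 TPM in the cKO and 528 to 717 TPM in the control. The astrocyte and neural stem cell list summed to 788 to 1093.5 TPM in the cKO and 765 to 1223 TPM in the control. For oligodendrocyte markers this was 32.2 to 59.3 TPM in the cKO and 29.1 to 114 TPM in the control. Whether this RNA came from ependymal or other cells was not tested. The deleted gene went with the labels: Ccn1 had 411, 238 and 524 counts in the cKO libraries, against 1665, 2037 and 2224 in the controls. Ccn1 in the cKO was at 21.4% of the control level in CPM, a log2 difference of -2.22 ± 0.38 (SE, edgeR quasi-likelihood unadjusted p = 0.000415, adjusted p = 1.0 over all genes).

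The beta chains divided sharply into present and absent. Itgb1, Itgb5 and Itgb8 had more than 3 counts in all 6 libraries, whereas Itgb2 was listed at 0 in every library and Itgb3 reached at most 2.81 counts. Of the alpha chains, none had more than 3 counts in all 6 libraries. Itgav passed 3 counts in 3 libraries, and Itga5, Itga6, Itga2 and Itgam in 1 each. In a bulk sample, fewer cells that carry a transcript and less of it in each cell cannot be told apart.

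Promoters of 4 of the genes, chosen to span this range, are shown as the 250 bases before the RefSeq start site (GRCm38.p6), 5′ to 3′ on the strand of the gene. Itgb5 and Itgb1 were present in every library, Itgav in some, and Itgam was near 0. The capitals mark matches, on either strand, to the GC box letters GGGCGG, the TEAD core letters GGAATG and the CCAAT box letters CCAAT, which do not overlap each other here. The windows lie at chr16:33829415-33829664 for Itgb5, chr8:128685404-128685653 for Itgb1, chr2:83724147-83724396 for Itgav and chr7:128062390-128062639 for Itgam, all on the plus strand.
Itgb5: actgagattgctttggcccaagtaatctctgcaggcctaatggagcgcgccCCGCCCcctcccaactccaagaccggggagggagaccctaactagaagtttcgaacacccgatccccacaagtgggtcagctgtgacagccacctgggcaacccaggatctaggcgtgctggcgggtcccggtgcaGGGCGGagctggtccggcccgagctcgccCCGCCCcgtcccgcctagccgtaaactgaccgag
Itgb1: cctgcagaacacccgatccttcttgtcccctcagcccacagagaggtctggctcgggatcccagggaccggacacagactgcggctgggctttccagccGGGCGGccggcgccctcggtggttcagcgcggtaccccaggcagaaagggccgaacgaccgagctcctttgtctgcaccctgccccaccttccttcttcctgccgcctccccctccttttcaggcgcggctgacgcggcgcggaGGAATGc
Itgav: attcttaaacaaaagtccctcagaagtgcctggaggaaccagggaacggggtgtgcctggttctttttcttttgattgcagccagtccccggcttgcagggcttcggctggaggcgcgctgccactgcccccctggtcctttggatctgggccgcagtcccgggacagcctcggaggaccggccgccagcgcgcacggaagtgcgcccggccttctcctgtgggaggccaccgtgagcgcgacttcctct
Itgam: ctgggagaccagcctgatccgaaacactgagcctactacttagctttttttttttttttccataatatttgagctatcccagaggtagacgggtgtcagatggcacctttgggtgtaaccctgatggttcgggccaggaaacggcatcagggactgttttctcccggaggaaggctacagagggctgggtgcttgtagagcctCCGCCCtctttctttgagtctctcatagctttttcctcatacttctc
The Itgb5 window held 3 GC boxes, the Itgb1 window 1 GC box and 1 TEAD core, the Itgam window 1 GC box, and the Itgav window no match. The windows not printed did not keep to that split: Itgb8, present in every library, had 0 GC boxes and 1 CCAAT box, Itga5, absent from 5 libraries, had 2 GC boxes, and Itga2 had no match. Of 32851 promoter windows of this length, 32.7% held a GC box, 12.6% a TEAD core and 33.8% a CCAAT box. The count of CG dinucleotides was 18 for Itgb5, 21 for Itgb1, 18 for Itgav, 6 for Itgam, 12 for Itgb8, 11 for Itga5 and 12 for Itga2, and the median over all windows was 6. The Itgav window is thus as rich in CG as that of Itgb5 while its level was far lower. RefSeq entries were found for 7 of the 10 genes. A match of letters is a description and does not show that a factor binds.

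Itgb8 encodes the beta chain that pairs with the Itgav product and is known for releasing active TGF-beta from its latent form in the developing brain. Its locus is chromosome 12, 119158022 to 119238802, minus strand (GRCm38, GENCODE M21). Its level was 8.34, 8.51 and 10.4 TPM in the cKO libraries, against 14.6, 11.1 and 8.67 TPM in the controls. Its spread was the smallest of the 3 beta genes found in every library, with an average of 10.3 ± 2.39 TPM over the 6 libraries (SD, n = 6).

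Itgb1, on chromosome 8 from 128685654 to 128733200 on the plus strand, encodes the common beta chain of receptors for laminin, collagen and fibronectin. Its level was 4.59, 14.3 and 13.3 TPM in the cKO libraries, against 13.3, 20.5 and 19.2 TPM in the controls. The cKO 1 library was the lowest of the 6, and the other 2 cKO libraries lay close to the lowest control. Itgb5, on chromosome 16 from 33829665 to 33949338 on the plus strand, encodes a beta chain that pairs with the Itgav product as a vitronectin receptor. Itgb5 stood at 10.6, 6.97 and 12.9 TPM in the cKO libraries, against 7.44, 44.1 and 12.1 TPM in the controls. The control 2 library was far above the other 5, and without it the mean over libraries was 9.99 TPM in place of 15.7 TPM.

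These 3 beta genes could not be put in a fixed order by level. Itgb1 was the highest of the 3 in 3 libraries, Itgb5 in 2 and Itgb8 in 1, and their ranges overlapped. Itgb5 exceeded Itgb1 in 2 of 6 libraries although its mean was higher, and Itgb1 exceeded Itgb8 in 4 of 6. Together with the little of Itgb3, they made up the summed level of the 5 beta genes: Itgb1 held 36.1 ± 11.3%, Itgb5 35.5 ± 14.1% and Itgb8 28.4 ± 9.48% of it (SD, n = 6). The gap to the next gene was wide, since Itgb8 was above Itgav in all 6 libraries with no overlap of their ranges.

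Itgav encodes the alpha chain shared by the pairs with Itgb1, Itgb3, Itgb5 and Itgb8, and lies on chromosome 2 from 83724397 to 83806916 on the plus strand. It had 0, 161 and 177 counts in the cKO libraries, against 1, 65 and 1 in the controls. In TPM this was 0, 2.09 and 2.14 in the cKO and 0.0102, 0.842 and 0.0113 in the control. It was thus found in 2 of 3 cKO libraries and in 1 of 3 controls, and the groups overlapped. Such gaps were common among genes of similar mean count, and their cause was not tested. There were 1629 genes that averaged between 50 and 100 counts. Of these, 85.1% fell to 3 counts or fewer in at least 1 library and 43.5% did so in 3 or more. Itgav, with a mean of 67.5 counts, falls in that class. One antisense gene, Gm13684, overlaps an exon of Itgav, and no source used here says whether the library preparation kept the strand.

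A further 3 alpha genes appeared in a single library each, Itga5 in control 3 and both Itga6 and Itga2 in control 2. Itga5, the alpha chain of the classical fibronectin receptor (chromosome 15, 103344286 to 103366763, minus strand), had 0 counts in all 3 cKO libraries, against 0, 0 and 237 counts in the controls. Itga6, the alpha chain of laminin receptors and a surface marker of neural stem cells (chromosome 2, 71745616 to 71858416, plus strand), had 0 in the cKO, against 0, 78 and 0 counts in the controls. Itga2, an alpha chain of collagen receptors (chromosome 13, 114833081 to 114932100, minus strand), had 0 in the cKO, against 0, 19 and 0. A count of 0 in the cKO libraries allows up to 0.216, 0.224 and 0.218 CPM each, so a level below that is not excluded. These limits cover counting error only.

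Presence in 1 library alone was no mark of these genes. Across all genes, 1055 had at least 50 counts in a single library and 3 or fewer in the other 5. The cKO libraries had 180, 209 and 191 of them, against 117, 206 and 152 in the controls. Itga5 and Itga6 are among the 1055 genes, as are Itga10 and Itgae of the other integrin subunits. Of genes with a mean of 25 to 50 counts, the class of Itga5, 18.5% were at 3 counts or fewer in 5 libraries, and of those with a mean of 10 to 25, the class of Itga6, 36.2% were.

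The myeloid pair was absent on its beta side. Itgb2 (chromosome 10, 77530252 to 77565708, plus strand), the beta chain that joins the Itgam product, had 0 counts in all 6 libraries. Itgam (chromosome 7, 128062640 to 128118491, plus strand), known as CD11b, had 1.83, 1 and 2 counts in the cKO, against 6.01, 0 and 0 in the controls. The 1.83 in cKO 1 is an estimate from reads divided between genes, and a second gene, Gm49368, overlaps it on the same strand and was listed at 0. Microglial markers were not all absent: C1qb, a complement gene of microglia, had 282, 280 and 101 counts in the cKO and 371, 311 and 389 in the control. Tyrobp, the next microglial marker by mean TPM, had 0, 28 and 0 counts in the cKO and 163, 34 and 50 in the control. For both genes all 3 cKO values in CPM lay below all 3 controls, which held for 4.62% of all genes tested. Only 6 microglial markers could be tested. Their fitted log2 differences were above 0 for 3 and below 0 for 3, and edgeR called 0. Of the 12 microglial markers 2 stood above 3 counts in all 6 libraries, and only 1, Ptprc, stayed at 3 counts or fewer in all 6. Each of the others passed 3 counts in some library. The summed level of the 12 was 54.5 to 71.4 TPM in the cKO and 65.2 to 82.8 TPM in the control. Ptprc, which encodes the leukocyte antigen CD45, was at 0 in all 6.

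Itgb3 (chromosome 11, 104608000 to 104670476, plus strand), the partner of Itgav in the receptor through which CCN1 acts on endothelial cells, had 0 in the cKO and 1, 0 and 2.81 counts in the controls. None of 8 endothelial markers passed 3 counts in any library, and 7 of them, among them Cldn5, a tight junction gene, and Pecam1, an adhesion gene, were at 0 throughout. Their summed level was 0 to 0.0141 TPM in the cKO and 0 to 0.0141 TPM in the control.

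**Figure D1:**
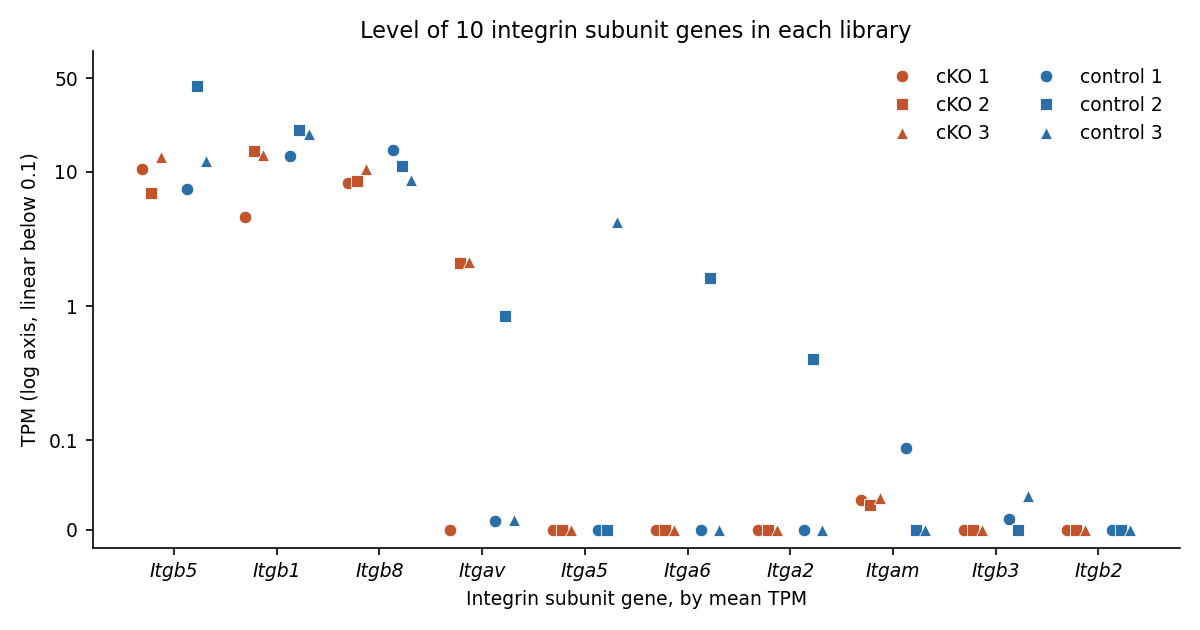
TPM of each of the 10 integrin subunit genes (horizontal axis, ordered by mean) in each of 6 libraries; the vertical axis is logarithmic above 0.1 and linear below, orange points are cKO and blue points control libraries, and shapes give the library number. Itgb5, Itgb1 and Itgb8 lie between 4.59 and 44.1 TPM in every library, Itgav is at or near 0 in 3 libraries, and each of Itga5, Itga6 and Itga2 rises above 0 in a single control.

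The next question was which alpha and beta chains were present together in 1 library. Of 8 pairs known from textbooks that can be formed from the 10 genes, 6 had both genes above 3 counts in at least 1 library. Itgav was found with Itgb1, Itgb5 and Itgb8 in the same 3 libraries, cKO 2, cKO 3 and control 2. The lower level of each of these pairs was that of Itgav in all 6 libraries, at 2.09 and 2.14 TPM in the 2 cKO libraries and 0.842 TPM in the control. Itga5 with Itgb1 was present in control 3 alone, with a lower level of 4.24 TPM, and Itga6 or Itga2 with Itgb1 in control 2 alone, with 1.63 and 0.407 TPM. The pairs of Itgav with Itgb3 and of Itgam with Itgb2 did not have both genes above 3 counts in any library.

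Counted by library, the cKO libraries held 0, 3 and 3 of the 8 pairs, against 0, 5 and 1 in the controls. In cKO 1 and control 1 no pair was complete, although the 3 beta genes were present there. The alpha gene had the lower RNA level in each pair that was found: in the pairs with Itgb1, Itgb5 and Itgb8 it was below the beta gene in all 6 libraries. Whether the alpha chain limits how much receptor forms was not tested.

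**Figure D2:**
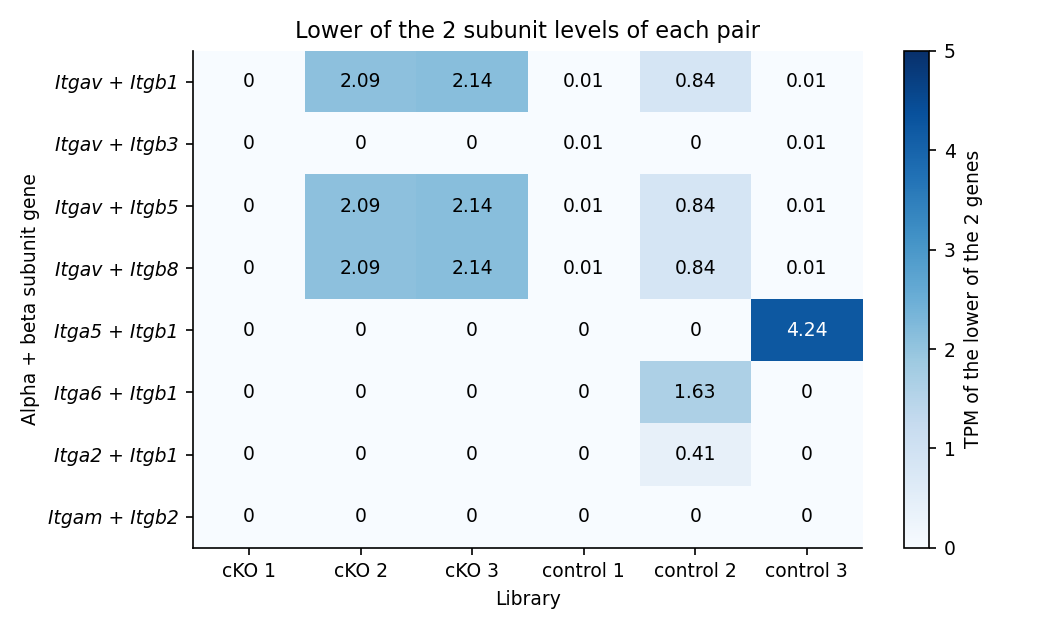
The lower of the 2 subunit levels in TPM (colour and number) for 8 alpha and beta gene pairs (rows) in each library (columns, cKO left of control). The pairs of Itgav with Itgb1, Itgb5 and Itgb8 reach 2.09 and 2.14 in cKO 2 and cKO 3 and 0.84 in control 2, and cKO 1 has no pair above 0.

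Set against all 27 integrin subunit genes, the 10 covered most of the beta side and little of the alpha side. They held 91.4 ± 6.62% of the summed TPM of the 9 beta genes but 11.4 ± 10.1% of that of the 18 alpha genes (SD, n = 6). The summed alpha level was 5.12, 25.2 and 12.8 TPM in the cKO libraries, against 9.07, 20.5 and 15.7 TPM in the controls, and the summed beta level was higher in every library, by 1.27 to 5.79 times. The leading alpha gene of each library was none of the 10: it was Itga2b in 4 libraries and Itga3 in cKO 3 and control 3. The 10 were chosen by name, and whether products of the other subunit genes can bind CCN1 was not examined.

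Of the 17 other integrin subunits, 4 had a mean of at least 1 TPM. Itga2b, known as the platelet chain that pairs with the Itgb3 product, stood at 2.63, 11.7 and 2.69 TPM in the cKO and 5.12, 7.29 and 1.62 TPM in the control. Its usual partner Itgb3 was near 0 as given above. Pf4, a platelet gene that stands here on the list of border macrophage markers, was at 0 in all 6 libraries. Which cells the Itga2b RNA came from was not tested. Itga3, a laminin receptor chain that pairs with the Itgb1 product, stood at 0.914, 6.82 and 4.16 TPM in the cKO and 0.0153, 6.98 and 5.03 TPM in the control. Itga11, a collagen receptor chain that also pairs with the Itgb1 product, stood at 1.49, 3.63 and 3.4 TPM in the cKO and 0.881, 2.21 and 4.70 TPM in the control. Itga11 therefore had reads in every library, as Itga2b did, though its estimated count of 201.5 in cKO 2 shows that reads were divided between genes. Itgb4, whose known partner is the Itga6 product, stood at 6.14, 2.32 and 0.902 TPM in the cKO and 1.91, 3.94 and 5.07 TPM in the control, while Itga6 was at 0 in 5 of these libraries.

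**Figure D3:**
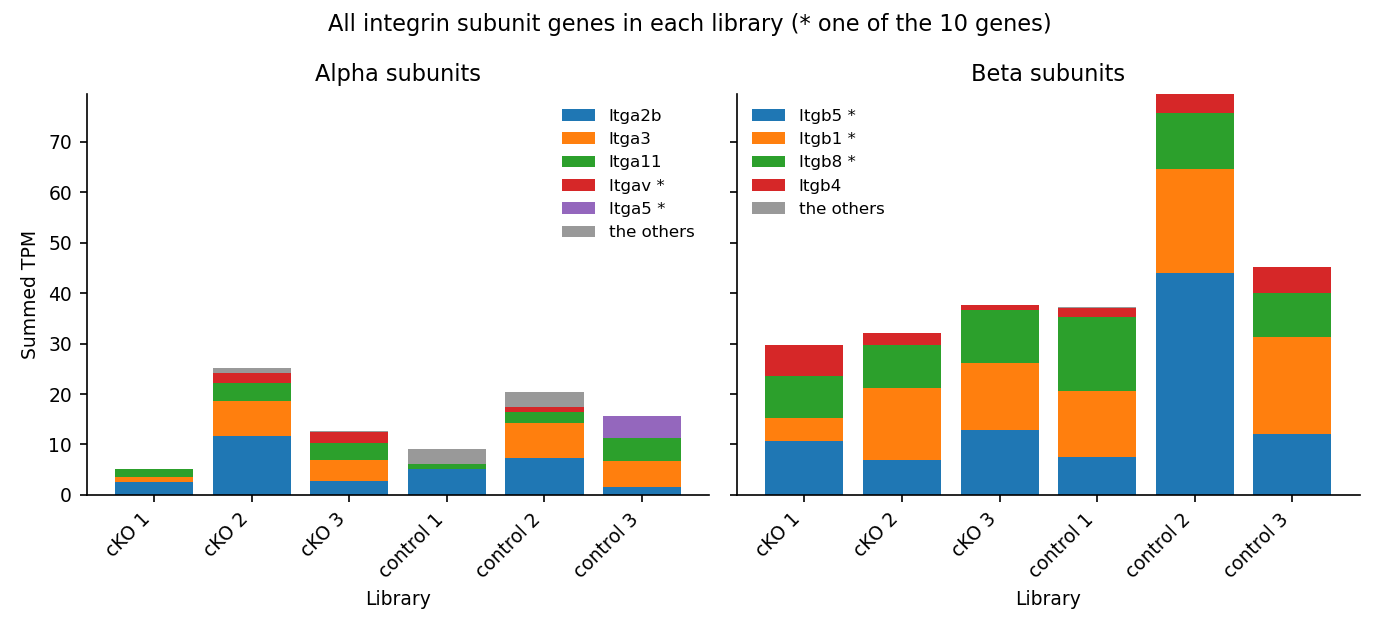
Summed TPM of all 18 alpha (left) and 9 beta (right) integrin subunit genes in each library, stacked by gene, with the 10 genes marked by a star and genes with a mean under 0.5 TPM in grey. The beta stack is the higher in each library and is made mostly of Itgb5, Itgb1 and Itgb8, and the alpha stack is made mostly of Itga2b, Itga3 and Itga11.

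The comparison of genotypes asked whether loss of Ccn1 went with a change in these genes. Itgb8, Itgb1, Itgb5 and Itgav had enough counts to be tested. By the edgeR quasi-likelihood test 0 of these 4 differed at a Benjamini-Hochberg adjusted p of 0.05, as did 0% of all 11574 genes tested. The deleted gene Ccn1 was not called by edgeR either, so 0 of the 4 does not show that these genes were unchanged. The fitted coefficient of variation between samples, beyond counting error, was 1.13. At an unadjusted p of 0.05 the edgeR test also gave 0 of the 4, against 2.75% of all genes, and DESeq2 called 0 of the 4 against 1.69% of all genes. The other 6 genes (Itga6, Itga5, Itga2, Itgam, Itgb2 and Itgb3) did not pass the filter on low counts and are described by their counts alone.

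Itgb1 was the only one of the 4 whose groups were apart in CPM, at 14.9, 44.4 and 44.0 CPM in the cKO, against 46.6, 62.8 and 59.3 CPM in the control. All 3 cKO values lay below all 3 controls, which held for 4.62% of all genes tested. The gap was narrow, since the highest cKO library and the lowest control were 44.4 and 46.6 CPM, and in TPM the groups overlapped. Itgb1 averaged 34.4 ± 16.9 CPM in cKO cells and 56.2 ± 8.53 CPM in control cells (SD, n = 3 each), a log2 difference of -0.71 ± 0.54 (SE) with a 95% interval from -1.96 to 0.54 (edgeR adjusted p = 1.0). The exact two-sided permutation p was 0.1, the smallest that 3 against 3 allows. Without the low cKO 1 library the log2 difference of Itgb1 was -0.35.

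Itgb8 averaged 67.3 ± 10.2 CPM in cKO cells and 85.6 ± 28.7 CPM in control cells (SD, n = 3 each), and the groups overlapped. Its log2 difference was -0.35 ± 0.35 (SE), with a 95% interval from -1.16 to 0.46 (edgeR adjusted p = 1.0), the narrowest interval of the 4. Most of the difference came with control 1, without which the log2 difference of Itgb8 was -0.047.

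Itgb5 averaged 26.1 ± 8.29 CPM in cKO cells and 52.5 ± 47.5 CPM in control cells (SD, n = 3 each), and the groups overlapped. Its log2 difference was -1.01 ± 0.72 (SE), with a 95% interval from -2.69 to 0.67 (edgeR adjusted p = 1.0). Control 2 at 107 CPM set that value: without it the log2 difference of Itgb5 was 0.050. Itgav averaged 8.33 ± 7.23 CPM in cKO cells and 1.62 ± 2.70 CPM in control cells, and the log2 difference of 2.35 had a 95% interval from -3.79 to 8.49 (edgeR adjusted p = 1.0). Its SD was close to its mean in the cKO and above it in the control, and without control 2 the log2 difference was 6.82. By limma on log2(TPM + 1), a scale that understates changes of low genes, it was 0.79.

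**Figure D4:**
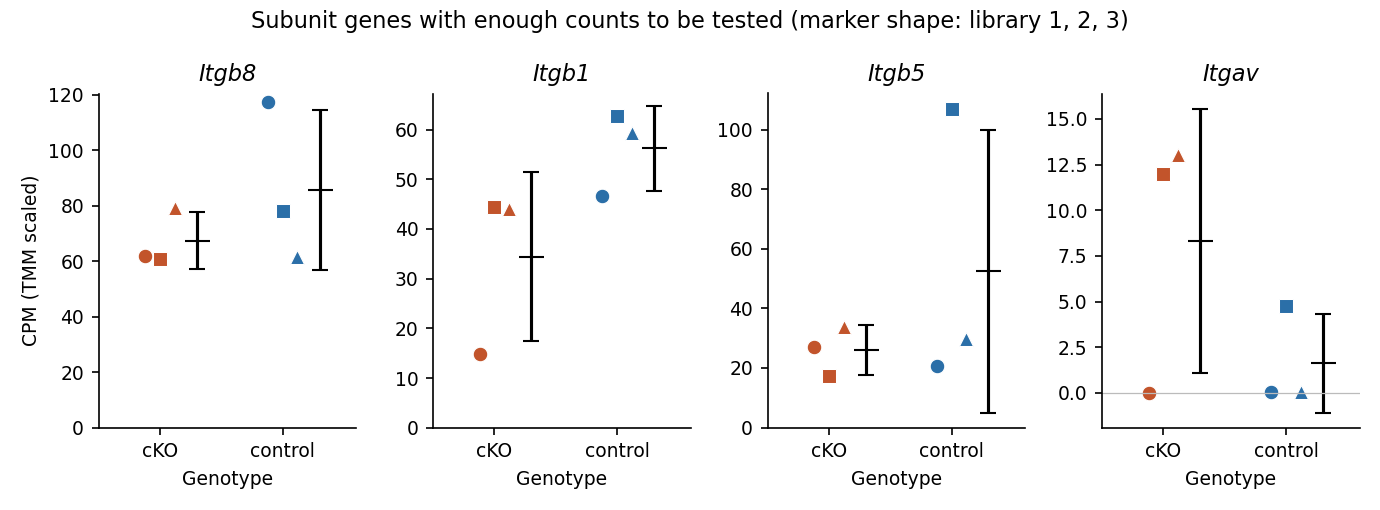
CPM of the 4 tested genes in each library (points; cKO left, control right; shapes give the library number), with the mean and SD of 3 libraries beside them as a bar. The groups overlap for Itgb8, Itgb5 and Itgav, and for Itgb1 the highest cKO value of 44.4 lies just under the lowest control value of 46.6.

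**Figure D5:**
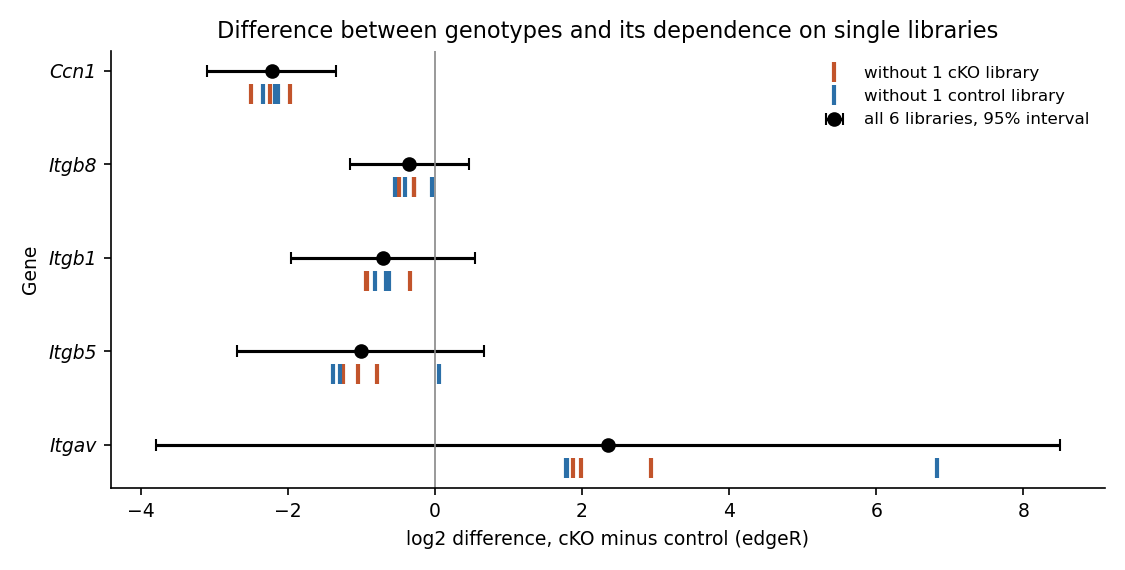
Log2 difference of cKO minus control from edgeR for Ccn1 and the 4 tested genes, with its 95% interval (black) and the value without each single library (ticks, orange for a cKO and blue for a control library left out). The interval of Ccn1 lies below 0 and those of the 4 integrin genes cross 0, and the ticks of Itgb5 run from -1.39 to 0.050.

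Genes that act with integrins inside the cell were mostly present. Of 28 adaptor and adhesion kinase genes, 15 had more than 3 counts in every library and 22 were tested, 11 higher and 11 lower in the cKO, with 0 called (edgeR). Their median log2 difference was -0.046, against 0.0044 for all genes tested. Cib1, which binds the tail of the Itga2b chain, stood at 253 ± 26.0 TPM in the cKO and 217 ± 21.7 TPM in the control (SD, n = 3 each). Ilk, the scaffold that joins beta tails to actin through parvin, stood at 144 ± 38.5 TPM in the cKO and 127 ± 83.8 TPM in the control, and Itgb1bp1, which binds the Itgb1 tail and restrains its activation, at 61.6 ± 21.3 TPM in the cKO and 89.9 ± 38.2 TPM in the control. The 2 genes with the smallest p were Src, a kinase recruited to adhesions, and Tns3, a tensin that binds beta tails. Src had 327, 134 and 27 counts in the cKO and 0, 0 and 8 in the control (edgeR adjusted p = 1.0), and Tns3 had 51.3, 70.0 and 87.0 counts in the cKO and 8.18, 13 and 9 in the control (edgeR adjusted p = 1.0). All 3 cKO values lay above all 3 controls for these 2 adaptor genes, which held for 4.99% of all genes tested.

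In the membrane, Cd9, Cd81, Cd63 and Sdc4 were each at a higher mean TPM than any of the 10 integrin genes. Of 9 membrane partners 8 were tested, 4 higher and 4 lower, with 0 called (edgeR) and a median log2 difference of -0.019. The tetraspanin genes Cd9, Cd81 and Cd63, whose products form webs that hold integrins, stood at 1825 ± 93.7, 1887 ± 197 and 1503 ± 133 TPM in the cKO and 1886 ± 244, 1723 ± 153 and 1472 ± 157 TPM in the control. Cd151, the tetraspanin that binds laminin-receptor integrins, stood at 13.8 ± 1.81 TPM in the cKO and 19.6 ± 5.51 TPM in the control. Of the 7 other receptors known for CCN1, 4 were tested and 0 were called (edgeR). Their fitted log2 differences had a median of -0.33 and ran to a value near 0 for Sdc4, and in mean TPM Lrp1 was slightly above the control. Sdc4, the heparan sulphate proteoglycan that serves as a co-receptor of integrins, stood at 401 ± 68.0 TPM in the cKO and 406 ± 107 TPM in the control, and Sdc2 at 83.2 ± 21.5 TPM in the cKO and 95.8 ± 33.7 TPM in the control. Lrp1, an endocytic receptor, stood at 1.64 ± 1.02 TPM in the cKO and 1.61 ± 1.64 TPM in the control, and Tlr4, a receptor of innate immunity, at 0.327 ± 0.476 TPM in the cKO and 1.78 ± 1.55 TPM in the control.

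Among the ligands, 11 of 24 matrix genes were tested, 9 higher and 2 lower, with 0 called (edgeR) and a median log2 difference of 0.50. Fibronectin (Fn1) reached 4 counts in the cKO and 122 in control 2, and vitronectin (Vtn) and osteopontin (Spp1) were at 0 in all 6 libraries. Mfge8, a secreted protein that binds the Itgav receptors, was the highest of the list at 64.1 ± 22 TPM in the cKO and 49.3 ± 19.8 TPM in the control. Lamb2, a laminin chain, stood at 7.97 ± 3.92 TPM in the cKO and 6.01 ± 2.15 TPM in the control, and Thbs1, a matricellular protein, at 5.53 ± 3.60 TPM in the cKO and 6.14 ± 3.32 TPM in the control. Lama3, another laminin chain, had 174, 75 and 109 counts in the cKO and 0, 0 and 1 in the control (edgeR adjusted p = 1.0) and was called by DESeq2. Of the 9 genes listed for the latent TGF-beta complex, 5 were tested, 3 higher and 2 lower, with 0 called (edgeR). Whether the pair of Itgav with Itgb8 acts on any one TGF-beta form here was not measured. Tgfb3 had 225, 32 and 74 counts in the cKO, against 0, 0 and 422 in the control. Tgfb2 had the highest mean TPM of the list, at 4.67, 7.36 and 8.26 TPM in the cKO, against 9.66, 11.2 and 14.1 TPM in the control. Ltbp3, which tethers the latent complex to the matrix, stood at 6.05 ± 2.67 TPM in the cKO and 5.17 ± 2.20 TPM in the control. All 3 cKO values of Tgfb2 lay below all 3 controls, as did those of 4.62% of all genes tested (edgeR adjusted p = 1.0, exact permutation p = 0.1), while Tgfb1 was at 0 in 5 libraries and at 1 count in control 3. Of the 6 CCN genes 2 were tested, Ccn1 and Ccn5, and Ccn5 stood at 54.3 ± 17.6 TPM in the cKO and 81.4 ± 66.4 TPM in the control.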

How the data were processed

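RNA of sorted ependymal cells was sequenced in 3 cKO and 3 control samples. Reads were handled with CASAVA 1.8, cutadapt 1.11 and kallisto 0.42.5, per the submitters' processing notes. No source used here names their genome build or annotation. Every deposited file lists genes with their TPM and their estimated count, both made by the authors. Groups were taken from the sample titles. Estimated counts were rounded and tested with edgeR 4.0.16 (R 4.3.3; TMM scaling, filterByExpr, quasi-likelihood test) on 11574 genes, with Benjamini-Hochberg adjustment over all of them; DESeq2 1.42.0 and limma 3.58.1 were alternatives, with single libraries left out and a replicate block. The fitting steps were tested on simulated data. Levels and pairs are from TPM, and a gene counted as found above 3 counts. CPM are counts over TMM-scaled totals. Coordinates are from GENCODE M21 and promoters from RefSeq GRCm38.p6. The genes and lists were chosen with earlier results of these data known. From each list the text names mostly genes of highest mean TPM or smallest p, and other integrins of at least 1 TPM; Fn1, Vtn, Spp1, Tgfb1, Ptprc, Pf4, Pecam1 and the genes of the overlaps were named after their values were seen.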

Additional observations from a re-analysis of the deposited data

How the results depend on the processing

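Over all 11574 genes tested edgeR called 0 (318 at an unadjusted p of 0.05), whereas DESeq2 called 200 of 11823, or 1.69%, 111 higher and 89 lower in the cKO. Of 58 listed pathway genes it tested, DESeq2 called 2, Lama3 and the deleted gene Ccn1, and gave Ccn1 a log2 difference of -2.22 with an adjusted p of 4.04e-06; the cause was not tested. No alternative called any of the 4 tested integrin genes. The log2 difference of Itgb5 was 0.050 without control 2, the reverse of the sign with all libraries. Leaving out 1 library at a time gave -2.50 to -1.97 for Ccn1, -0.93 to -0.35 for Itgb1, -0.54 to -0.047 for Itgb8, -1.39 to 0.050 for Itgb5 and 1.79 to 6.82 for Itgav. Under limma on log2(TPM + 1) the value for Itgav was 0.79. With the replicate number as a block, the log2 difference was -2.27 for Ccn1, -0.85 for Itgb1, -0.31 for Itgb8, -0.61 for Itgb5 and 1.88 for Itgav, and 0 genes were called. The deviations of same-numbered samples correlated at 0.0080, 0.031 and 0.015, so the numbers were not taken to pair them. In CPM, which is not scaled for length, Itgb8 held 49.2% of the summed level of the 5 beta genes, against 28.4% in TPM.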

Other observations

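Genes whose pattern over the 6 libraries was most like that of Itgav were sought among 3480 genes of at least 50 CPM, by Pearson's r of log2 CPM. Dnajb13, a gene of the ciliary axoneme, came first at 0.996. Its level was 248, 336 and 344 CPM in cKO libraries, against 250, 322 and 252 CPM in controls, so it was higher in the same 3 libraries in which Itgav was found. Cwc15 followed at 0.966 and Jam2, a junctional adhesion gene, at 0.964. For Itgb5 the nearest were Slc25a20 at 0.971, Zfp24 at 0.971 and Nrep at 0.958, and each of these was highest in control 2, as Itgb5 was. These values are over 6 libraries and the nearest of many genes, and are given as a description with no test.

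Ccn2, a close relative of Ccn1, averaged 1.99 ± 3.42 TPM in the cKO and 2.00 ± 3.47 TPM in the control (SD, n = 3 each) and did not pass the filter on low counts. It had 1, 149 and 0 counts in the cKO, against 0, 151 and 0 in the control, so each mean rests on 1 library. Acta2, a smooth muscle actin gene also on the list of mural markers, averaged 348 TPM over the 6 libraries, while 5 of the 8 mural and fibroblast markers were at 3 counts or fewer in all of them. The others passed 3 counts in some library. Pdgfrb, next on that list by mean TPM, had 1, 0 and 136 counts in the cKO, against 0, 0 and 0 in the control.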
